A study of Bos taurus with 2 samples.

Results

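Interferon-stimulated genes and the genes of peptide supply to MHC class I were followed in the muzzle of dark-muzzle and light-muzzle HanWoo, the native Korean cattle. The list was set by gene name and held 59 genes. A probe was taken as a member when its accession was paired with 1 of these symbols in the bovine RefSeq table. This gave 77 probes of 39 genes, out of 9647 genes with a symbol on the array. The other 20 genes were not analysed here: ISG20, IFIT1, IFIT2, IFI44, IFI44L, CMPK2, BST2, ADAR, SP110, HERC6, PARP14, DTX3L, IFIH1, DDX58, STAT2, IRF1, IRF2, NLRC5, CIITA and GBP2.

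Total RNA came from the nose tissue of 1 light-muzzle cow, labelled yellow, and 1 dark-muzzle cow, labelled black. Both were Hanwoo females of 30 months, with no treatment named in the labels, and the front part of the muzzle had been taken at slaughter. Each RNA was labelled with Cy3 and read alone on an Agilent bovine array, and both arrays lay on the same slide. With 1 cow per group no test could be made, and every value below is a difference between 2 animals without a replicate check.

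Interferons are secreted when a cell detects viral nucleic acid. Their receptors activate STAT proteins, which with IRF9 enter the nucleus and switch on a large set of interferon-stimulated genes. The products of many of these genes block viral replication, and ISG15 is a ubiquitin-like protein that is attached to other proteins. Interferon also induces the immunoproteasome, the TAP transporter and beta-2-microglobulin, by which peptides are cut, carried into the endoplasmic reticulum and shown on MHC class I. In skin, keratinocytes, endothelial cells and leukocytes can all mount this response.

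Levels are given as log2 of the processed signal, the brightness of a spot after background subtraction, relative to the 75th percentile of the same array. Log2 ratios subtract the level in light muzzle from that in dark muzzle, so that 2-fold is 1 on either side of 0. Levels of different probes cannot be set against each other. Both arrays had 43803 noncontrol spots, of which 78.8% in light muzzle and 81.9% in dark muzzle were well above background. The median SD of the log2 ratio was 0.049 between spots of 1 probe, over 43 probes spotted 4 times each, and 0.18 between different probes of 1 accession. The 8 spike-in transcripts that stood well above background in each cow had log2 ratios from -0.38 to 0.0063. The 777 measured spots next to member spots on the slide had a median log2 ratio of -0.00091.

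Of the 39 genes, 37 were measured in both cows and the 2 others, OAS1X and OAS2, were well above background in 1 cow and have a bound. Among the 77 probes, 71 were well above background in both cows, 3 in 1 cow and 3 in neither. ISG15 was 11.8-fold higher in dark muzzle. RSAD2, USP18 and MX1 were 3.28-fold, 2.72-fold and 2.51-fold higher. OAS1X, from 1 probe, was 5.51-fold lower in dark muzzle when set against the detection limit. Under normexp background correction its log2 ratio was -0.95, short of 2-fold. The values of the remaining 34 genes lay within 2-fold. That of OAS2, 1.85-fold, is a bound. A bound is the least size of a difference, so it does not place OAS2 under 2-fold.

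At 2-fold, 4 of 39 members (10.3%) were higher in dark muzzle, and 9.86% of all 8914 genes with a ratio were. One member was at least 2-fold lower, 2.56% of the list, beside 6.47% of all genes. The share of members past 2-fold higher was thus near that of the array. The median log2 ratio of the members was 0.27, and that of all genes was 0.065. The ratio lay above 0 for 31 of 39 members and for 55.2% of all genes. Above the median of all genes lay 30 members, and 27 lay between -0.50 and 0.50. At 1.5-fold, 9 members were higher and 1 was lower, beside 19.8% and 13.6% of all genes. At 3-fold, 2 were higher (ISG15 and RSAD2) and 1 was lower, beside 4.69% and 3.03%. Counted by probe, 8 member probes were at least 2-fold higher and 2 lower, beside 9.76% and 7.17% of the probes with a ratio. The members' quartiles were 0.069 and 0.52, and those of all genes -0.29 and 0.46.

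**Figure D1:**
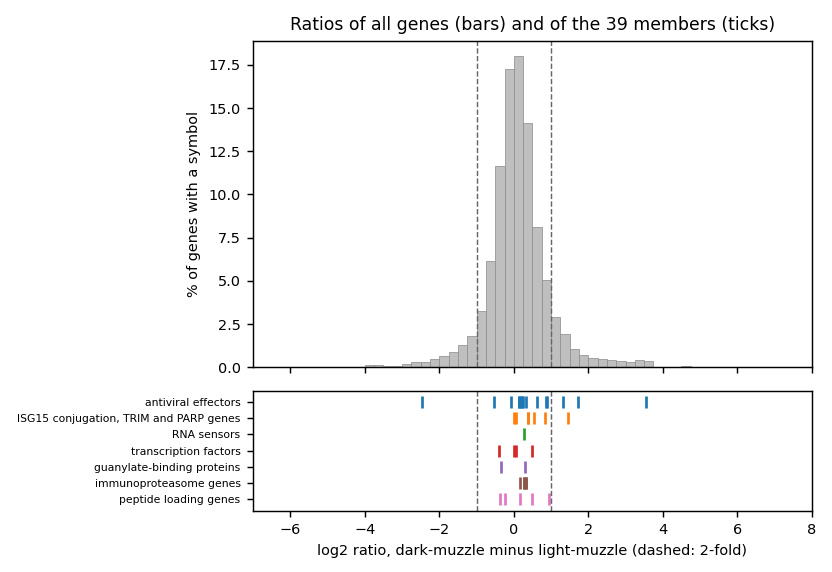
Log2 ratios (dark-muzzle minus light-muzzle) of 8914 genes with a symbol as a histogram in percent of genes, with the 39 members as ticks by role underneath; dashed lines mark 2-fold. Most ticks sit a little to the right of 0, with a median of 0.27, and the tick of ISG15 stands alone at 3.56.

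The antiviral effectors were the most varied group, and the genes with the highest and the lowest ratio of the list both belong to it. Of its 24 genes, 15 had a value, 12 of them above 0, and the median log2 ratio was 0.23. Of the 15, 3 (20%) were at least 2-fold higher and 1 (6.67%), OAS1X with a bound, was at least 2-fold lower. Of all genes, 9.86% were at least 2-fold higher and 6.47% lower.

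ISG15 (NM_174366) was read by 2 probes. The first had a processed signal of 759 in light muzzle and 8559 in dark muzzle, and the second had 846 and 10348. On the log2 scale the mean level went from -0.51 to 3.05. The ratios of the probes were 3.50 and 3.62, so both gave more than 11-fold with little spread. Only 41 of the 8914 genes had a higher ratio than ISG15. Its ratio lay between 3.45 and 3.62 over the 13 other settings tried.

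RSAD2 (NM_001045941) encodes viperin, an enzyme that makes a chain-terminating nucleotide. Its measured probe had a log2 level of -2.87 in light muzzle and -1.16 in dark muzzle, a ratio of 1.71. Its other probe was too dim in both cows to be measured, with log2 levels of -7.95 and -5.73. The value of RSAD2 therefore rests on 1 probe.

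MX1 (NM_173940) encodes a dynamin-like GTPase that traps viral ribonucleoproteins. Its 3 probes had log2 levels of -4.64, -1.04 and -0.051 in light muzzle, and of -3.63, 0.59 and 1.29 in dark muzzle. Each probe was higher in dark muzzle, with ratios of 1.01, 1.63 and 1.34. MX2, its paralogue and the adjacent protein-coding gene in the RefSeq annotation, had log2 levels of -4.42 and -4.49 and a ratio of -0.07. The neighbours thus differed by 1.39 in log2 ratio, and MX2 was dim, beside detection limits of -5.78 on the light-muzzle and -5.81 on the dark-muzzle array.

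The oligoadenylate synthetases make 2-5A, the second messenger that activates RNase L to cut RNA. Cattle have several OAS1 copies, and these lie beside OAS2 in the annotation. OAS1X (NM_178108) had a log2 level of -3.35 in light muzzle and was not well above background in dark muzzle, at -7.73. Its ratio set against the detection limit was -2.46, a bound, and -0.95 under normexp background correction, short of 2-fold. OAS1Y had levels of 2.36 and 3.22, a ratio of 0.86. OAS1Z had mean levels of -4.65 and -4.52, and its 2 probes gave ratios of 0.09 and 0.18. OAS2 was well above background in dark muzzle only, with a level of -4.89 against -5.79, and its bound was 0.88, or 0.30 under normexp background correction. The ratio of OAS1Z was -0.05 with quantile and -0.01 with loess normalization. The copies thus went apart, with OAS1X lower and the others higher or near 0 in dark muzzle. OAS1X, OAS1Y and OAS2 had 1 probe each. The OAS1 copies are close paralogues, and whether a probe also binds transcripts of another copy was not tested.

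IFI27, which encodes a small interferon-induced protein, had probes that disagreed. Their ratios were -1.93, -0.27 and 0.62. The log2 levels of these probes were 4.15, -2.32 and 0.81 in light muzzle and 2.22, -2.58 and 1.42 in dark muzzle. The mean of -0.53 describes none of the 3. IFI27 was 1 of 22 members with at least 2 measured probes, and the single one whose probes were 2-fold or more apart (4.55%, beside 538 of 5363 such genes on the array). Probes of 15 of the 22 members had ratios on 1 side of 0 (68.2%), against 70.7% of all genes.

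The other effectors lay within 1.54-fold. XAF1, an apoptosis-promoting partner of XIAP, was highest of these with a mean of 0.62 over probes at 0.46 and 0.78. IFIT5, which binds RNA with a free triphosphate end, had a ratio of 0.34, with levels of -0.02 and 0.32. IFI6 had a ratio of 0.23. EIF2AK2, the kinase PKR that halts translation on double-stranded RNA, also had a ratio of 0.23. IFI35 gave 0.18. The measured probe of IFIT3 gave 0.13, and its second probe, well above background in dark muzzle only, had a bound of 0.73. IFIT3 was -0.08 with quantile and -0.05 with loess normalization.

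**Figure D2:**
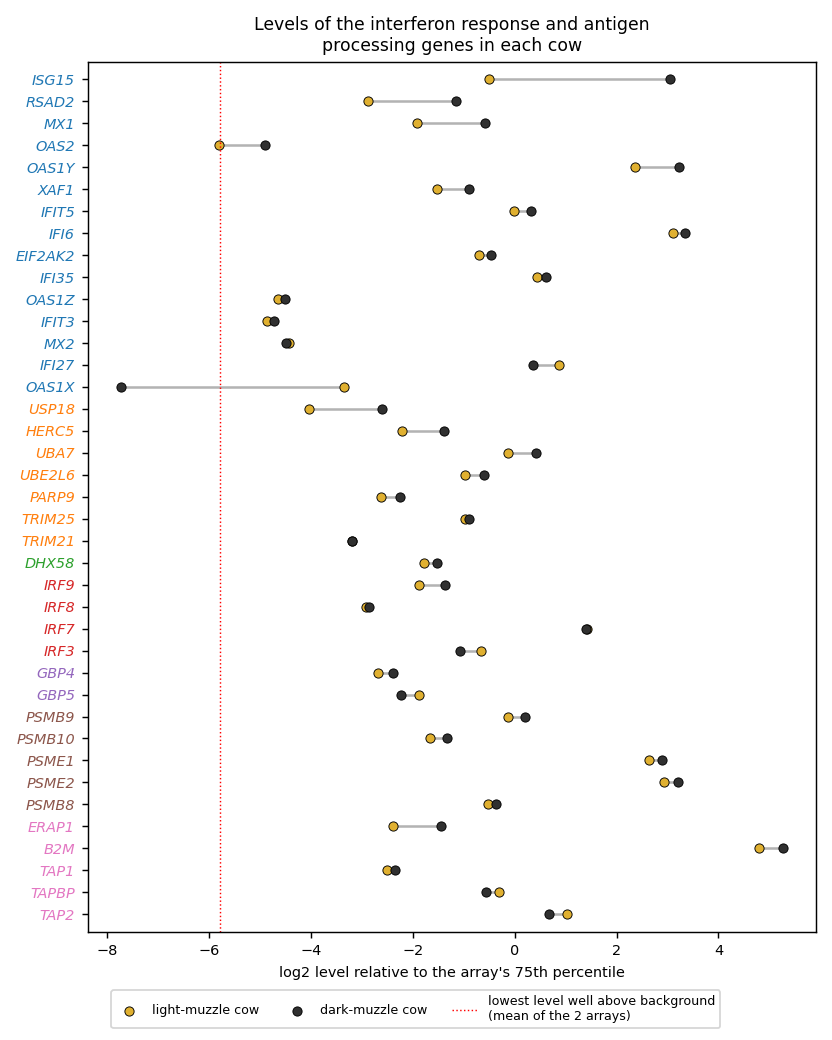
Log2 level of each of the 39 genes in light muzzle (yellow) and dark muzzle (black), relative to the 75th percentile of the array, as the mean over measured probes (for OAS1X and OAS2, the probe with the bound); gene names are coloured by role as in the plot of probe ratios and levels of different genes are not comparable. The widest gap to the right belongs to ISG15 (-0.51 and 3.05), and OAS1X is the gene whose dark-muzzle level lies beyond the detection limit (dotted, mean of both arrays).

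ISG15 is joined to its targets by an enzyme chain and removed by USP18. The activating enzyme UBA7 had log2 levels of -0.13 and 0.42 and a ratio of 0.54. The conjugating enzyme UBE2L6 had a ratio of 0.38, with probes at 0.37 and 0.38. The ligase HERC5 had levels of -2.22 and -1.38 and a ratio of 0.84. The protease USP18 (NM_001017940), which also dampens interferon receptor signalling, had levels of -4.05 and -2.61 and a ratio of 1.44. All 4 enzymes were higher in dark muzzle, by less than ISG15 itself, and UBE2L6 was the only one of them with more than 1 probe. The 1.44 of USP18 was 0.90 under normexp background correction, short of 2-fold.

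PARP9, which forms a complex with the ubiquitin ligase DTX3L, averaged 0.37 over probes at 0.54, 0.52 and 0.07. TRIM21 binds antibody-coated virus in the cytosol and had a ratio of 0.01. TRIM25, which ubiquitinates RIG-I, averaged 0.07 over probes at -0.24, 0.05 and 0.40. Together with the ISG15 enzymes this made 7 genes with a value, all above 0 as processed here, with a median of 0.38. The sign of TRIM21 turned under 4 other settings, down to -0.09 with quantile normalization, and TRIM25 was -0.24 with its brightest probe. USP18 was the 1 gene of them past 2-fold.

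Of the cytosolic RNA sensors, DHX58 was measured. It encodes LGP2, a helicase that modulates sensing by MDA5. Its measured probe had levels of -1.78 and -1.52 and a ratio of 0.27. The other probe was well above background in neither cow, and averaging it in without a filter on dim probes gave 1.13.

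The transcription factors of the response lay within 2-fold and went both ways. IRF9, a DNA-binding factor activated by type I interferon, had a mean ratio of 0.50, but its 3 probes were spread over 0.07, 0.56 and 0.86. IRF8, a factor of myeloid and B cells, averaged 0.07 over probes at -0.26 and 0.39. IRF7, which amplifies type I interferon production, had levels of 1.41 in both cows and a ratio of -0.0051. IRF3, which starts the first wave of interferon, had a ratio of -0.40, with probes at -0.44 and -0.36. Thus 2 of 4 factors were above 0, and the median was 0.03. The guanylate-binding proteins, GTPases that attack vacuoles of intracellular pathogens, went apart. GBP4 averaged 0.30 over probes at -0.08, 0.43 and 0.56, and GBP5 had a ratio of -0.36 from 1 probe.

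**Figure D3:**
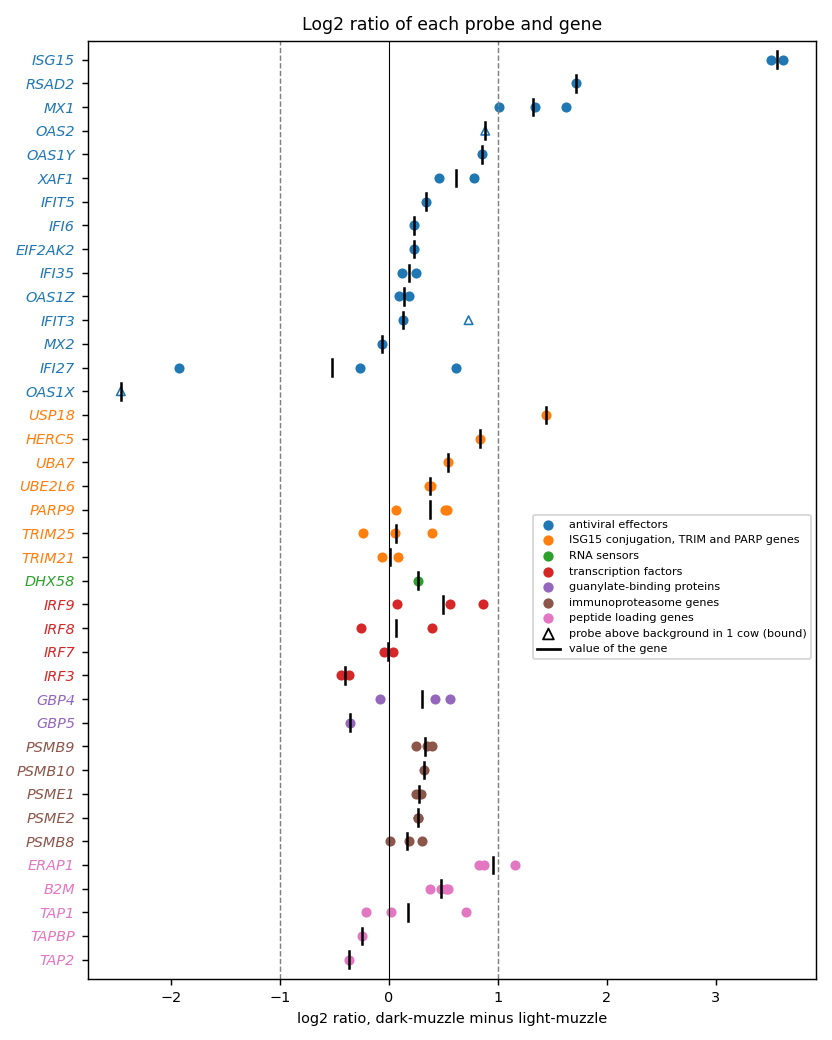
Log2 ratio (dark-muzzle minus light-muzzle) of every probe with a value, as points coloured by role, with the value of the gene as a black line; open triangles are bounds of probes well above background in 1 cow and dashed lines mark 2-fold. The probes of ISG15 at 3.50 and 3.62 lie apart from all others, and those of IFI27 reach from -1.93 to 0.62.

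The immunoproteasome genes formed the tightest of the groups with more than 1 gene. PSMB8, PSMB9 and PSMB10 encode the catalytic subunits that replace PSMB5, PSMB6 and PSMB7, and PSME1 and PSME2 encode the PA28 activator. All 5 were slightly higher in dark muzzle, with ratios from 0.17 to 0.33 and a median of 0.27. PSMB9 had mean levels of -0.13 and 0.21, a ratio of 0.33, from probes at 0.25, 0.35 and 0.40. PSMB10 had levels of -1.66 and -1.34 and a ratio of 0.32. PSME1 and PSME2, which have 1 protein-coding gene between them in the annotation, both had a ratio of 0.27. PSMB8 averaged 0.17 over probes at 0.01, 0.18 and 0.30. No gene of the group reached 1.5-fold.

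The proteasome subunits outside this group were higher by more. All 26 measured subunits of the core and of the regulatory particle were above 0, between 0.31 (PSMB1) and 0.77 (PSMC6), with a median of 0.52. Of these, 24 had a ratio above the highest of the immunoproteasome genes, and this number was 19 to 25 under the other settings that kept all 26. None of the 26 reached 2-fold. PSMB5 had a ratio of 0.53, PSMB6 one of 0.50 and PSMB7 one of 0.37. The ratio of PSMB8 was lower than that of PSMB5 by a log2 difference of -0.37, that of PSMB9 differed from PSMB6 by -0.17, and that of PSMB10 from PSMB7 by -0.05. The last of these is smaller than the spread between probes of PSMB7, from 0.13 to 0.61. That of PSMB9 and PSMB6 is no larger in size than the median SD of 0.18 between probes of 1 accession. PSMB5, PSMB6 and PSMB10 had 1 probe each.

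**Figure D4:**
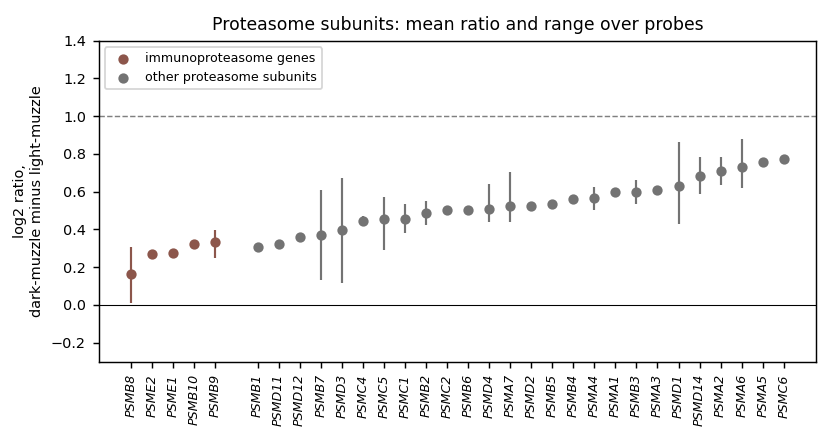
Mean log2 ratio (dark-muzzle minus light-muzzle) of 5 immunoproteasome genes (brown) and 26 other proteasome subunits (grey), with the range over probes as a vertical line where a gene has several. All lie above 0 and below 2-fold (dashed), the brown points between 0.17 and 0.33 and the grey points between 0.31 and 0.77.

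The genes of peptide loading had a median ratio of 0.17 and differed in direction. ERAP1, the aminopeptidase that trims peptides in the endoplasmic reticulum, came closest to 2-fold. Its 3 measured probes had levels of -0.23, -2.28 and -4.68 in light muzzle and of 0.59, -1.40 and -3.52 in dark muzzle. The ratios were 0.82, 0.87 and 1.16, with a mean of 0.95. B2M, the light chain of MHC class I, was read by 4 probes with ratios of 0.37, 0.54, 0.52 and 0.48. Its mean level went from 4.79 to 5.27, a ratio of 0.48, with all of its probes higher in dark muzzle.

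The transporter subunits TAP1 and TAP2 had ratios of opposite sign. TAP1 averaged 0.17 over probes at 0.71, 0.02 and -0.21, and its sign turned with the brightest probe. TAP2 had levels of 1.03 and 0.67 and a ratio of -0.37. TAPBP, or tapasin, which holds MHC class I at the transporter, had levels of -0.31 and -0.56 and a ratio of -0.24. TAP2 and TAPBP had 1 probe each. PSMB8 and PSMB9 lie on either side of TAP1 in the annotation, and their ratios of 0.17 and 0.33 stood beside 0.17 for TAP1.

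Other genes of the pathway, listed beside the members, were mostly within 2-fold. Of the receptor and JAK-STAT list, 9 of 15 genes had a value, 0 passed 2-fold in either direction, and the median log2 ratio was 0.05. The receptor chains IFNAR1, IFNAR2, IFNGR1 and IL10RB had ratios of 0.02, 0.05, 0.45 and -0.08. PIAS1 was lowest of this list, at -0.72, and SOCS3 highest, with a bound of 0.66. Of the nucleic acid sensing list, 10 of 17 genes had a value, with a median of -0.03. TLR7, the endosomal receptor for single-stranded RNA, was the 1 gene past 2-fold there, with a bound of -1.71, from levels of -4.10 in light muzzle and -7.96, below the detection limit, in dark muzzle.

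Of 36 further interferon-stimulated genes, 14 had a value, 9 of them above 0, with a median of 0.19. CXCL10, a chemokine that draws activated T cells, had 2 measured probes of 3, with ratios of 1.42 and 1.58. Its levels were -3.27 and -1.77, 2.83-fold apart. It was the only gene of this list past 2-fold, 7.14% of those with a value, beside 9.86% of all genes at least 2-fold higher. RTP4 averaged 0.90 over probes at 0.50 and 1.31. CXCL9 had a ratio of 0.89 from 1 probe, with a level of -3.91 in light muzzle. LGALS9 had a ratio of 0.88 and IFITM2 one of 0.73. IDO1 had a ratio of 0.05, and CXCL11 a bound of 0.02. SAMHD1, which depletes nucleotides, had the lowest, -0.54, and LGALS3BP the next, -0.37. IFI30, NMI and IFITM5 were also below 0, at -0.16, -0.13 and -0.0047.

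Markers of several cell types in the tissue differed between the cows by more than most members. In bulk tissue, fewer cells of a type and less RNA per cell cannot be told apart. The sums of linear levels below weigh each gene by the brightness of its probes. They set the cows side by side and do not rank genes. Of 14 skeletal muscle markers 11 had a value, all at least 2-fold higher in dark muzzle, with ratios from 2.24 to 3.57 and linear levels that summed to 165 in light muzzle and 1113 in dark muzzle. Of 12 serous gland markers 7 had a value, 5 at least 2-fold lower and 1 at least 2-fold higher, with a median of -2.81 and sums of 259 and 14.4 over the 6 measured in both cows; ODAM was above background in neither cow. Of 9 endothelial markers 8 had a value, all above 0, 3 past 2-fold, with a median of 0.83 and sums of 5.59 and 11.5. Of 11 melanocyte markers 8 had a value, 5 past 2-fold higher, with a median of 1.32. TYRP1 and EDNRB are among these 5 and have only a bound. DCT and KIT lay below 0, at -0.52 and -0.07. Linear levels of the 6 measured in both cows summed to 2.91 and 5.39, and to 1.98 and 2.37 without PMEL. Of 8 fibroblast markers 7 had a value, with a median of -0.42. Keratinocyte markers, which mark the epidermis of the labelled nose tissue, were measured for 7 of 12 genes in both cows, with a median of 0.35. They went both ways: KRT10 and IVL, of differentiated layers, were past 2-fold higher at 1.57 and 1.26, while KRT5 and KRT14, of the basal layer, had ratios of -0.52 and -0.41. The summed levels were 434 and 642, and 313 and 282 without KRT10.

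Leukocyte markers, those of plasma cells apart, differed less. Of 17 T and NK cell markers 16 had a value, 0 passed 2-fold in either direction, the range was -0.55 to 0.91 and the median 0.0071. Linear levels of the 15 measured in both cows summed to 34.1 and 27.5, most of it CD4, and to 10.4 and 9.48 without CD4. For CD4, 1 of 4 probes was measured in both cows. Of 16 myeloid markers 10 had a value, 2 of them above 0, between -0.33 and 0.51, with a median of -0.14 and sums of 4.94 and 5.09, of which LYZ made up 30.4% and 39.1%. Of 8 pan-leukocyte markers 6 had a value, with a median of -0.11, and LCP1 was the 1 past 2-fold, at -1.11. Of 9 B and plasma cell markers 4 had a value, and the plasma cell genes JCHAIN and MZB1 were lower in dark muzzle, at -2.75 and -1.31. The part of any cell type in the ratios of the members was not tested.

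**Figure D5:**
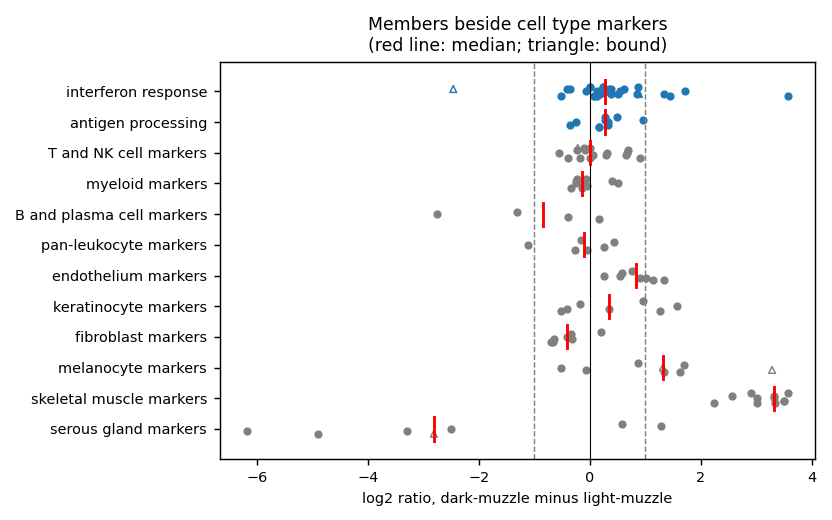
Log2 ratio (dark-muzzle minus light-muzzle) of each member, split into interferon response and antigen processing (blue), and of the cell type markers (grey), with the median of each row as a red line and bounds as triangles. Most members lie above 0, and T and NK cell markers and myeloid markers lie around 0. Skeletal muscle markers lie between 2.24 and 3.57, and serous gland markers reach -6.18.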

How the data were processed

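The files hold 1 Agilent 1-colour array for each of 2 cows, grouped by the tissue colour in their labels. The authors extracted spot intensity with Agilent Feature Extraction 10.7.3.1, and the deposited processed signal is the intensity left once that software had subtracted the background. The authors also deposited log2 values from GeneSpring, which were within 0.01 of the levels computed here for 99.97% of probes and served as an alternative. The medians of that table were -2.47 in the light-muzzle and -2.45 in the dark-muzzle column.

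From the processed signal, log2 levels were shifted by each array's 75th percentile (an intensity of 1144 in the light-muzzle and 1137 in the dark-muzzle cow). Control spots and 13 outlier spots per array were left out, no noncontrol spot was saturated, and spots of a probe were averaged, leaving 43639 probes. Probes well above background in 1 cow were given a bound, which is the least size of the difference. This was the bright level against the dim level or the detection limit, whichever was higher. The detection limit is the lowest level that passed as well above background in the cow with the dim level. A gene's value is the mean ratio of its probes measured in both cows, or, with none, its largest bound. Symbols came from matching 9688 of 28140 accessions, without versions, to the RefSeq table of ARS-UCD2.0, which named 47.2% of probes. The array was designed on another assembly, so no coordinate is given. No probe, promoter or protein sequence was used here.

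The members and lists were chosen with earlier results of these data known. One gene of a pathway list is not reported here. Members past 2-fold, the highest and lowest of each role, and members with probes 2-fold apart were described by name. Alternatives were quantile and loess normalization (span 0.3), a 50th percentile shift, no shift, normexp background correction (offset 50, on median spot and local background signals), other treatments of dim and outlier spots, the authors' table, other summaries of probes, and thresholds of 1.5-fold and 3-fold. Symbols from a gene name column, which had been planned, were not used here. Counting was tested on simulated data. Python 3.11.15, numpy 2.4.6, pandas 2.3.3, matplotlib and limma 3.58.1 in R 4.3.3 were used. The number of arrays, 1 per group, limits the precision.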

Additional observations from a re-analysis of the deposited data

How the results depend on the processing

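With 1 cow per group, no animal could be left out and no setting measures the spread between cows. No paired analysis was possible because each group holds 1 sample and no test was made. The 5 genes past 2-fold kept their direction under each setting that gave them a value, and 3 of them (ISG15, MX1 and RSAD2) stayed past 2-fold. Not every setting could move them. RSAD2, USP18 and OAS1X rest on 1 probe each, so taking the brightest probe or the median over probes left them unchanged. The authors' table nearly repeats the levels computed here. USP18 was 0.90 under normexp background correction. OAS1X was -0.95 there, so that 0 members were at least 2-fold lower, beside 4.16% of all genes. With only probes well above background on both arrays OAS1X had no value, and the count was again 0, beside 6.1%. With the brightest probe of a gene, 2 members were at least 2-fold lower, IFI27 being the second, beside 7.55% of all genes. The median of the peptide loading genes was -0.21 under that setting. At 1.5-fold 9 members were higher, beside 19.8% of all genes, and at 3-fold 2, beside 4.69%. Counted as probes, 8 were at least 2-fold higher and 2 lower, beside 9.76% and 7.17% of the probes with a ratio. With only genes that had 2 or more measured probes, chosen after the data had been seen, 22 members were left. Of these, 2 were higher and 0 lower, beside 8.84% and 4.92% of 5363 genes. The median of the peptide loading genes was then 0.48. The median of all members lay between 0.21 and 0.30 over the 13 settings that gave one. Of the 39 members, 33 kept their sign under every such setting. The levels of OAS2, OAS1Z, IFIT3 and MX2 lay near the background. OAS1X was below the detection limit in dark muzzle, and USP18 was dim in light muzzle, at -4.05. The cause of the changes between settings was not tested.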

Other observations

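Among the chaperones of the endoplasmic reticulum that fold MHC class I, CALR had 6 probes with ratios between -1.37 and -1.08 and was 2.33-fold lower on average. PDIA3 had a ratio of -0.61 from 1 probe. CANX was near 0, at -0.14, with 7 probes between -0.41 and 0.22, and TAPBPL was at 0.18 with probes on both sides of 0. HSPA5, a general chaperone of this compartment, had a mean ratio of -0.82 over 4 probes between -1.16 and -0.58. In the same list of 12 genes with a value, TPP2, a cytosolic peptidase, was highest, at 0.92, and CD74, the invariant chain of MHC class II, had 5 probes spread from 0.21 to 2.19. The median of the list was 0.02.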
